A study of Rattus norvegicus with 4 samples.

Results

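Ephrins, Slits and netrins, 3 families of guidance ligands, were followed together with their Eph, Robo, Unc5, Dcc and neogenin receptors in single-cell RNA-seq data of the rat peripheral nervous system. The genes were taken by symbol from the gene table, using the family names Efna, Efnb, Epha, Ephb, Slit, Robo, Ntn and Unc5 with a number or letter, plus Dcc and Neo1. The rule reads symbols only and gave 38 of 25399 genes, although the set of families was chosen with earlier results of these data known. They were 5 ephrin-A and 3 ephrin-B ligands, 8 EphA and 5 EphB receptors, 3 Slits, 4 Robos, 4 netrins, 4 Unc5 receptors, and Dcc and neogenin. The study set out to profile Schwann cells of nerve and ganglion. The labels give 4 groups of Sprague Dawley rats, with 1 library each. These are the dorsal root ganglion at 8 weeks, the dorsal root ganglion at postnatal day 1, the sciatic nerve at 8 weeks and the sciatic nerve at postnatal day 1. All were wild type as far as the labels go, no treatment is named, sex was not determined, and the number of animals behind a library is not given in the sources used here. A growth protocol given for every group describes primary Schwann cells in medium with serum, which leaves unstated whether cells were cultured before capture. The cell barcodes end in a number from 1 to 4, and no source used here ties that number to a group. The libraries are therefore called library 1 to library 4, every comparison below is between cell classes inside 1 library, and tissues and ages were not compared.

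Ephrins are membrane-bound ligands of the Eph receptor tyrosine kinases, so their signals pass between touching cells and can run in both directions; the ephrin-A proteins are held by a lipid anchor and the ephrin-B proteins cross the membrane. Slits are secreted proteins read by Robo receptors, and netrins are secreted or matrix-bound proteins read by Dcc, neogenin and the Unc5 receptors. In peripheral nerve, Eph and ephrin contacts are known to sort Schwann cells from fibroblasts and to steer axons, while ephrin-B2 and EphB4 are the classical arterial and venous pair of blood vessels.

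Each cell was placed in a class by a gate on marker genes, none of which is an ephrin, Slit, netrin or one of their receptors. The class names stand for the markers that gated the cells, as in Schwann-like or neuron-like, and the ending is left out from here on. A class was described in a library where it held at least 50 cells. Schwann cells, meaning glia without a UMI of the satellite glia marker Fabp7, numbered 253, 532, 438 and 5409 in libraries 1 to 4. Fibroblasts numbered 6400, 390, 980 and 989, endothelial cells 112, 553, 205 and 66, and macrophages 1935, 167, 97 and 90. Mural cells, the pericytes and smooth muscle cells of vessel walls, numbered 191, 332 and 113 in libraries 2 to 4. Neurons were described in libraries 2 and 3 (4545 and 3128 cells), satellite glia in library 2 (674 cells), perineurial cells in library 1 (348 cells) and erythroid cells in libraries 3 and 4 (72 and 70 cells). Schwann cells were also split into myelinating cells (168, 163 and 518 in libraries 2 to 4) and nonmyelinating cells (124, 256, 98 and 3242 in libraries 1 to 4). The nonmyelinating gate may also take immature cells: in library 4, 537 of 681 dividing Schwann cells (78.9%) passed it. Mature and immature cells were not told apart. The top 10 genes of the Schwann class by fold against the other cells held 7 to 9 of its own markers in every library, Mag among them. Other classes were less clear by that measure. Neurons of libraries 2 and 3, perineurial cells of library 1, fibroblasts of library 4 and macrophages of library 4 had none of their own markers in their top 10. Fibroblasts of libraries 1 and 3 had 1 of their own and 1 of another class (Ucma of cartilage and Tnnt3 of skeletal muscle), satellite glia had 1 of their own, and the remaining described classes had 1 to 7. The marker lists themselves summed to 21584 and 27487 CPM (UMIs of a gene per 1000000 UMIs of the class) in those neurons, 5445 CPM in perineurial cells with 2 of 6 markers at 0, 61963 CPM in fibroblasts and 27591 CPM in macrophages of library 4. The top genes were led by Snhg11 in neurons, by Mettl7b, Kcnj13 and Tsga10ip in perineurial cells, by Egfl6, Col9a1 and Itgbl1 in fibroblasts of library 4 and by Fcna in macrophages of library 4.

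The libraries held 74425958 to 97572003 unique molecular identifiers (UMIs, 1 per captured transcript), and the kept cells had medians of 6617, 1645.5, 4639 and 7554.5 UMIs in libraries 1 to 4. Of the 33175 kept cells, 13.6% fell in no class. RNA from neurons was found in every class of libraries 2 and 3: the 11 neuron markers summed to 1528 to 4494 CPM in their Schwann cells, satellite glia, fibroblasts, endothelial cells, mural cells and macrophages. In the same classes of libraries 1 and 4 the sum was 11.7 to 175 CPM. For that reason macrophage values are given beside Robo2, Slit1 and Efnb2 in the comparison of neurons, though not beside every neuron-rich gene. In the Schwann class the 7 fibroblast markers summed to 921 to 6633 CPM, against 34497 to 125675 CPM in fibroblasts. The part of stray RNA in the results below was not tested.

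The promoters of 6 of the genes are shown here because the comparisons below return to them: Ephb1 and Ephb6 were highest in a glial class, and Efna1, Efnb2, Ephb4 and Unc5b in endothelial cells, in every library where they were measured. Epha3 was as steady in fibroblasts, and its promoter is not printed. Each run holds 250 bases before and 50 bases after the gene's start, read 5′ to 3′ on the gene's strand, from RefSeq on build GRCr8. That is a later build than the Rnor_6.0 named in the submitters' processing notes, and no coordinate was carried over from one to the other. Capitals mark the letters of 2 motifs searched on both strands, the ETS family motif GGAAGT (reverse complement ACTTCC) and the SOX family motif ACAATG (reverse complement CATTGT). The regions are Ephb1 chr8:111823710-111824009 (minus strand), Ephb6 chr4:71458382-71458681 (plus strand), Efna1 chr2:176986772-176987071 (minus strand), Efnb2 chr16:87484965-87485264 (plus strand), Ephb4 chr12:24988339-24988638 (minus strand) and Unc5b chr20:29307221-29307520 (minus strand).
Ephb1: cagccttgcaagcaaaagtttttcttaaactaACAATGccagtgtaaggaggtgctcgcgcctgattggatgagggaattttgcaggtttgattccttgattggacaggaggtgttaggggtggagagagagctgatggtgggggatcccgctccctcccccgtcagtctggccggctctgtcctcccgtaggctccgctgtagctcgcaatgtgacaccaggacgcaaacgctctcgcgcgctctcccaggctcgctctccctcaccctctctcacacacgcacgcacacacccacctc
Ephb6: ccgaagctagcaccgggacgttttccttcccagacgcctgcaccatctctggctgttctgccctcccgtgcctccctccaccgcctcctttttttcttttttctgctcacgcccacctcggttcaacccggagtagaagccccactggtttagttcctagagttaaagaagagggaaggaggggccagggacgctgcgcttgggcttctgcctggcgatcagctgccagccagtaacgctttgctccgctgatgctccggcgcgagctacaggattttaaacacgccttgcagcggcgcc
Efna1: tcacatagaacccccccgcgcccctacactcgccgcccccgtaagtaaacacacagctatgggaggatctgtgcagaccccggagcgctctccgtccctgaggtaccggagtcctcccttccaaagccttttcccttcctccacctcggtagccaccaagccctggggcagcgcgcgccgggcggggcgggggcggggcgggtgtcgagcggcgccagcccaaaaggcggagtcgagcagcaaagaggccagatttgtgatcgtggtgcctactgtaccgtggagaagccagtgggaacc
Efnb2: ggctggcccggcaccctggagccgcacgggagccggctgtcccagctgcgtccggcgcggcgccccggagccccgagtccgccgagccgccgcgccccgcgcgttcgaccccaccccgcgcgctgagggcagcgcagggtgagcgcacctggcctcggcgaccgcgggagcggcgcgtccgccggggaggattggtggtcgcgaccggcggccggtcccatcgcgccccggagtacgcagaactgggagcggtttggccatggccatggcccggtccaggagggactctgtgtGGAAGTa
Ephb4: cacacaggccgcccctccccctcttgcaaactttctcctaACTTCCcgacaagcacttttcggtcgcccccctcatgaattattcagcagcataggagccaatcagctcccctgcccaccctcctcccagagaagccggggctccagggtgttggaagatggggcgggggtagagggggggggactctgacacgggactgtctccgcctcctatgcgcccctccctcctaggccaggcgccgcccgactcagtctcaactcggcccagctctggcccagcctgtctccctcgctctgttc
Unc5b: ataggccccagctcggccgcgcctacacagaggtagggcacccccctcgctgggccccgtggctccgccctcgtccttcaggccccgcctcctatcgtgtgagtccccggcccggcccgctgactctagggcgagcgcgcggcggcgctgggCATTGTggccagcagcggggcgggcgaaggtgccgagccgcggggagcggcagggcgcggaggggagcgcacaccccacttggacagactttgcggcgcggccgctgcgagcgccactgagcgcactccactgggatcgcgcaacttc

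The SOX motif stood in the Ephb1 and Unc5b promoters and the ETS motif in those of Efnb2 and Ephb4, while the Ephb6 and Efna1 windows held neither set of letters. Of the 31 genes of the families with a promoter in the table, 4 held the ETS motif (12.9%; Efnb2, Epha2, Ephb4 and Slit3), against 22.6% of all 33469 promoters. The SOX motif stood in 3 (9.68%; Ephb1, Ephb2 and Unc5b), against 13.2% of all promoters. Both shares were below those of all promoters, and a match is a description of the letters only. The 6 windows ranged from 58.0% G and C bases at Ephb1 to 77.3% at Efnb2.

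Of the 38 genes, 31 reached 20 summed UMIs in at least 1 class of 1 library. The other 7 were Epha8, Epha10, Robo3, Robo4, Ntn5, Unc5a and Dcc, which had 2 to 29 UMIs over all 41444 barcodes, 15 or fewer in any class, and none at 0. Dcc, the classical netrin receptor of growing axons, was the one with 29 UMIs, and 15 of those lay in neurons of library 3. Robo4, known as a Robo of blood vessels, had 6 UMIs, 3, 1 and 2 of them in endothelial cells of libraries 2, 3 and 4. All levels are CPM of the UMIs summed over the cells of a class. The 95% intervals are exact (Poisson for levels, Clopper-Pearson for shares and ratios) and cover counting error only. The limit given for a share of 0 is 3 cells of the total. With 1 library per labelled group there is no replicate, so no p-value is given. Because the assay tags the 3′ end of transcripts, levels of different genes are not compared with each other.

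Sorted by the class in which each gene was highest, the families spread over the connective tissue, the vessels, the neurons and the glia rather than over 1 class. A gene was measured in a library where its highest class had at least 20 UMIs, which gave 88 combinations of gene and library. In 55 of them the interval of the highest class lay apart from that of the next. Fibroblasts were highest for 7, 6, 12 and 14 genes in libraries 1 to 4, out of 20, 19, 26 and 23 measured. Endothelial cells were highest for 6, 4, 5 and 4, and Schwann cells for 1, 2, 2 and 4. Perineurial cells were highest for 6 genes in library 1, and neurons for 3 and 7 in libraries 2 and 3. Of the 14 genes measured in all 4 libraries, 6 had the same highest class in each: Efna1, Efnb2, Ephb4 and Unc5b in endothelial cells, Epha3 in fibroblasts and Ephb6 in Schwann cells. The same counts were not made for all genes, and a class with more UMIs reaches 20 at a lower CPM. The counts are thus not read as a trait of these families.

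**Figure D1:**
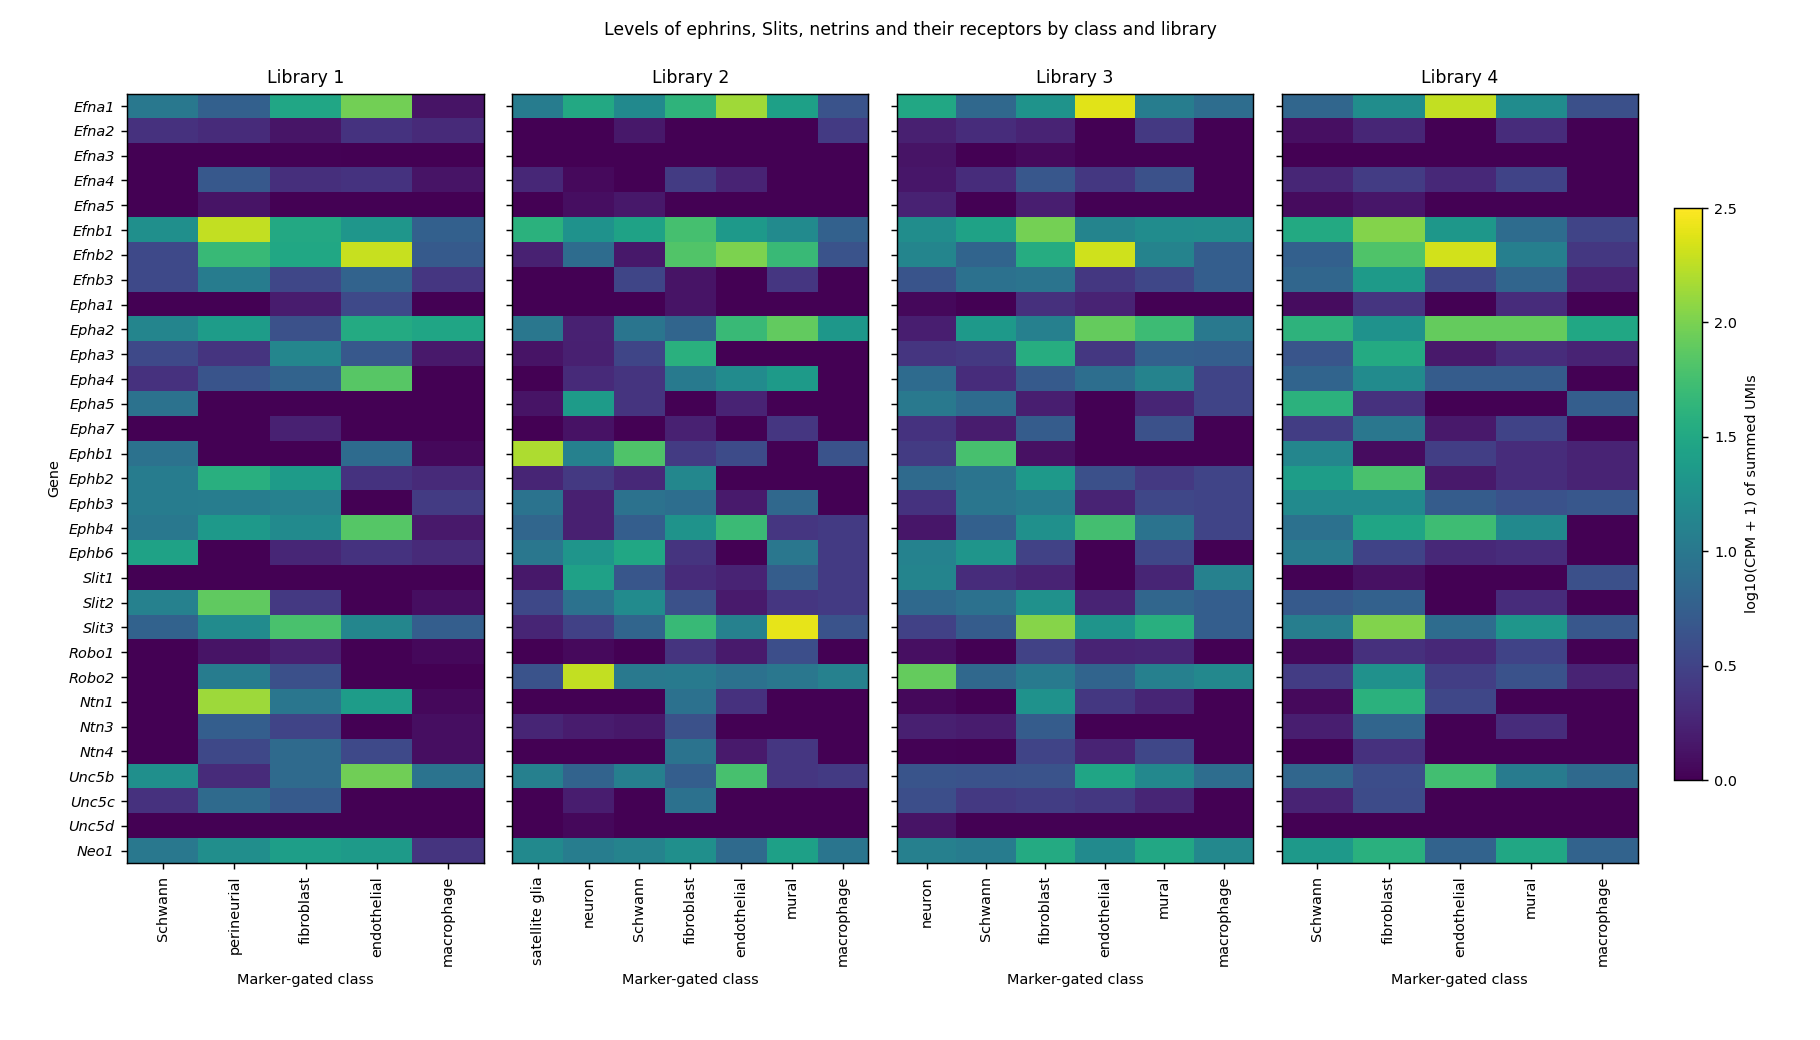
Levels of the 31 genes with at least 20 UMIs in a class, as the base-10 logarithm of CPM plus 1 (colour), by marker-gated class (columns; erythroid cells not drawn) in each of the 4 libraries (panels). Efna1, Efnb2, Ephb4 and Unc5b are brightest in the endothelial column of every panel, Epha3 in the fibroblast column, and Ephb6 in the Schwann column.

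Among the ligands, Efna1, an ephrin-A known from vessels, reached 92.1, 138, 243 and 185 CPM in endothelial cells of libraries 1 to 4. The next class stood at 29.2, 41.1, 32.3 and 15.7 CPM, and the intervals did not overlap in any library. Efnb2, the arterial ephrin-B, reached 195, 100, 206 and 213 CPM in endothelial cells, also apart from the next class in every library. Efnb1, an ephrin-B of mesenchyme, was highest in perineurial cells of library 1 at 185 CPM and in fibroblasts of the other libraries at 57.1, 94.1 and 107 CPM. Efnb3 was highest in perineurial cells of library 1 (10.2 CPM) and in fibroblasts of library 4 (21.8 CPM), whereas in library 3 fibroblasts at 8.17 CPM and Schwann cells at 7.60 CPM were not separated by their intervals. The other ephrin-A ligands were sparse: Efna2, Efna3, Efna4 and Efna5 stayed at or below 3.85 CPM in every class, Efna4 in perineurial cells of library 1 being that value.

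Among the EphA receptors, Epha3, a receptor kinase of mesenchymal cells, was highest in fibroblasts at 13.0, 37.9, 35.1 and 33.1 CPM, and the next class was at 3.89, 2.31, 4.82 and 3.70 CPM. Epha2, a receptor of epithelia and vessels, was highest in endothelial cells of libraries 1 and 3 (32.4 and 79.4 CPM) and in mural cells of libraries 2 and 4 (78.5 and 80.3 CPM). In library 1 its endothelial level was not separated from the 28.5 CPM of macrophages, nor in library 4 its mural level from the 79.4 CPM of endothelial cells. Epha4, which binds ephrins of both classes, was at 70.1 CPM in endothelial cells of library 1 (54 UMIs), whereas endothelial cells of libraries 2 to 4 had 15.1, 7.002 and 4.33 CPM. Epha5, a receptor of neurons, was highest in neurons of libraries 2 and 3 (22.4 and 9.15 CPM) and in Schwann cells of library 4 (39.6 CPM, 1801 UMIs). Neurons and Schwann cells of library 3 were not separated, Schwann cells standing at 6.51 CPM. Epha7 was highest in fibroblasts where it was measured, at 0.690, 4.39 and 8.82 CPM in libraries 1, 3 and 4, without standing apart from the next class, and Epha1 never passed 31 UMIs in a class.

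Among the EphB receptors, Ephb1, a receptor of ephrin-B ligands, was a gene of glia. It stood at 154 CPM in satellite glia of library 2 (1346 UMIs) and at 7.66, 64.1, 58.1 and 13.1 CPM in Schwann cells of libraries 1 to 4. The fibroblasts of libraries 2 to 4 had 1.74, 0.302 and 0.213 CPM. Ephb6, an Eph receptor whose kinase domain is inactive, was highest in Schwann cells of every library, at 26.8, 29.98, 19.0 and 10.0 CPM. Neurons came next in libraries 2 and 3 at 19.0 and 11.7 CPM, and both lay below the Schwann interval; in library 4 the next class, erythroid cells at 3.70 CPM on 4 UMIs, was not separated. Ephb2, a close relative of Ephb1, was highest in perineurial cells of library 1 (37.1 CPM) and in fibroblasts of libraries 2 to 4 (13.2, 21.2 and 59.3 CPM). Ephb4, the venous partner of ephrin-B2, was at 68.8, 50.1, 56.0 and 51.5 CPM in endothelial cells, 1.79 to 3.31 times the next class. Ephb3 had no separated highest class in any library: its levels were 11.7, 8.00, 10.3 and 14.8 CPM in the highest class and 10.5, 7.84, 8.69 and 14.8 CPM in the next.

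Among the Slits and Robos, Slit1 was a gene of neurons (26.3 and 12.4 CPM in libraries 2 and 3, with 1257 and 861 UMIs), although in library 3 its interval overlapped that of macrophages at 11.4 CPM on 5 UMIs. Slit2 was highest in perineurial cells of library 1 at 76.0 CPM (217 UMIs). In library 2 it was highest in Schwann cells (15.2 CPM), and in libraries 3 and 4 in fibroblasts (17.5 and 4.98 CPM). The fibroblasts of library 4 were not separated from Schwann cells at 4.15 CPM. Slit3 was highest in fibroblasts of libraries 1, 3 and 4 (58.9, 111 and 105 CPM) and in mural cells of library 2 (252 CPM). Slit1 thus had its highest levels in neurons, whereas Slit2 and Slit3 were both highest in fibroblasts of libraries 3 and 4. Robo2, a Slit receptor of sensory neurons, was at 183 and 80.1 CPM in neurons of libraries 2 and 3 (8785 and 5564 UMIs), at 17.4 CPM in fibroblasts of library 4 and at 10.2 CPM in perineurial cells of library 1. Robo1 was sparse, with 38 UMIs in fibroblasts of library 1 as its largest count.

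Among the netrins and their receptors, Ntn1, the founding netrin, was at 134 CPM in perineurial cells of library 1 (383 UMIs) and at 7.66, 18.0 and 38.9 CPM in fibroblasts of libraries 2 to 4, where fibroblasts were highest. Ntn3 followed the same classes at lower counts, 4.55 CPM in perineurial cells of library 1 and 3.13, 4.39 and 5.55 CPM in fibroblasts of libraries 2 to 4. Ntn4, a netrin of basement membranes, was highest in fibroblasts of libraries 1 and 2 (6.34 and 8.01 CPM), without standing apart from the next class. Unc5b, the Unc5 receptor of vessels, was at 89.6, 58.4, 28.8 and 54.4 CPM in endothelial cells, apart from the next class in libraries 1, 2 and 4 but not from the 13.7 CPM of mural cells in library 3. Unc5c was at 7.66 CPM in fibroblasts of library 2 and 3.01 CPM in neurons of library 3, and Unc5d reached 25 UMIs only in neurons of library 3. Neo1, a receptor that also binds RGM proteins, had 24.3, 16.7, 32.5 and 37.7 CPM in fibroblasts, and its highest class was not separated from the next in any of the 3 libraries where it was measured, as was also so for Ephb3, Ntn3 and Ntn4 in each of theirs.

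Schwann cells were compared with fibroblasts of the same library in all 4 libraries, which asks how the guidance genes divide the glia of a nerve from its connective tissue. Most of the ligands and many receptors were lower in Schwann cells: Efna1, Efnb2, Slit3, Ntn1, Epha3 and Ephb2 were at least 2-fold lower in every library. Ephb6 was at least 2-fold higher in every library, and Ephb1 in the 3 libraries where it could be measured. A gene was measured in a comparison with at least 20 UMIs on 1 side, at least 6 on the side of higher CPM and at least 6 expected on the other. It was then called where the sides differed at least 2-fold, with a side of fewer than 3 UMIs taken at 3. That floor enters the calls, the medians and the values under other settings, whereas a ratio printed or drawn for a gene with 1 or 2 UMIs on a side comes from the counts as they are. Of 77 combinations of gene and library, over 25 genes, 14 were higher, 48 lower and 15 within 2-fold. Higher in Schwann cells were 4 of 14 genes of the families in library 1, where 28.2% of all measured genes were, 4 of 18 in library 2 (14.1%), 2 of 21 in library 3 (11.5%) and 4 of 24 in library 4 (15.9%). Lower were 7 of 14 in library 1, where 15.1% of all measured genes were, 11 of 18 in library 2 (16.9%), 14 of 21 in library 3 (19.9%) and 16 of 24 in library 4 (17.1%). The median log2 ratio of the family members was -1.03, -1.76, -1.38 and -1.61, beside 0.44, 0.06, 0.03 and 0.07 for all measured genes.

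**Figure D2:**
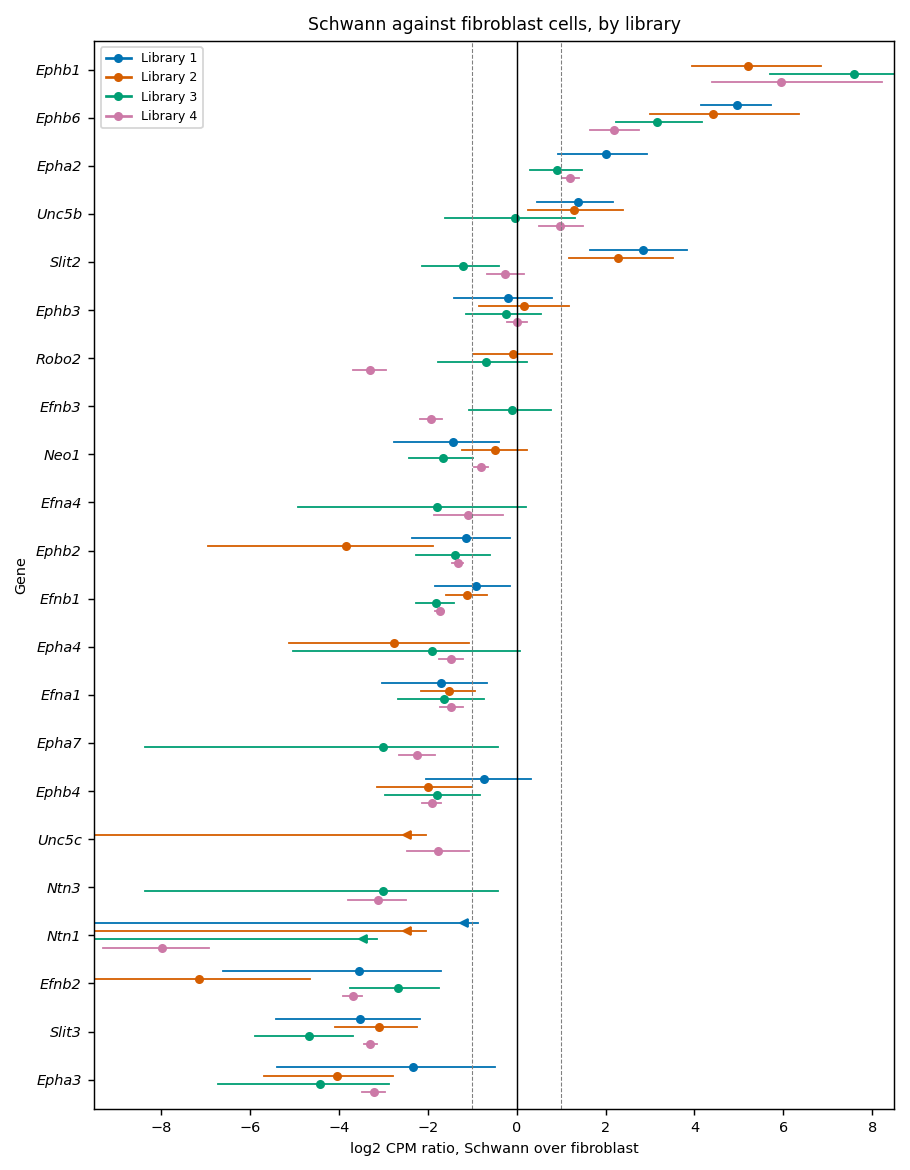
Log2 ratio of CPM, Schwann cells over fibroblasts, for the genes measured in at least 2 libraries (rows), with 1 point per library and its 95% counting interval, cut at the edge of the axis. Sideways triangles are bounds where Schwann cells had 0 UMIs, taken at 3, and dashed lines mark 2-fold; Ephb1 and Ephb6 lie right of the line in every library shown, and Efnb2, Slit3 and Epha3 lie left of it in all 4.

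On the ligand side, Efnb2 had 2.55, 0.461, 5.43 and 4.88 CPM in Schwann cells of libraries 1 to 4, against 29.9, 65.4, 34.3 and 63.1 CPM in fibroblasts. The Schwann counts were 2, 1, 10 and 222 UMIs. The log2 ratios from these counts were -3.55 (interval -6.60 to -1.70), -7.15 (-12.46 to -4.65), -2.66 (-3.74 to -1.76) and -3.69 (-3.91 to -3.48), so every interval lay beyond 1 doubling. Efna1 had 8.94, 14.3, 5.97 and 5.69 CPM in Schwann cells, against 29.2, 41.1, 18.4 and 15.7 CPM in fibroblasts, with log2 ratios of -1.71, -1.52, -1.63 and -1.47. Efnb1 had 16.6, 26.3, 26.6 and 32.2 CPM in Schwann cells, against 31.5, 57.1, 94.1 and 107 CPM in fibroblasts. Its log2 ratios were -0.92, -1.12, -1.82 and -1.73, under 2-fold in library 1 alone.

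Slit3, a secreted Robo ligand, had 5.11, 5.54, 4.34 and 10.7 CPM in Schwann cells, against 58.9, 47.3, 111 and 105 CPM in fibroblasts. The log2 ratios were -3.53, -3.10, -4.67 and -3.29, and the classes stood apart in every library. Ntn1 had 0 UMIs in Schwann cells of libraries 1 to 3, against 490, 22 and 119 UMIs in fibroblasts. Taken against 3 UMIs per class and library, it was at least 2.26-fold, 5.53-fold and 11.05-fold lower. In library 4 it had 7 UMIs (0.154 CPM) in Schwann cells, against 546 UMIs (38.9 CPM) in fibroblasts, a log2 ratio of -7.98 (interval -9.30 to -6.93). Slit2 did not keep 1 direction. It had 11.5, 15.2, 7.60 and 4.15 CPM in Schwann cells, against 1.61, 3.13, 17.5 and 4.98 CPM in fibroblasts, with log2 ratios of 2.84, 2.28, -1.21 and -0.26. Efna4 and Ntn3 were lower in both libraries where they were measured, and Ntn4 in the 1 library where it was.

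On the receptor side, Ephb6 had 26.8, 29.98, 19.0 and 10.0 CPM in Schwann cells, against 0.867, 1.39, 2.12 and 2.21 CPM in fibroblasts. Its log2 ratios were 4.95 (interval 4.14 to 5.72), 4.43 (3.003 to 6.35), 3.17 (2.24 to 4.17) and 2.18 (1.66 to 2.76). Ephb1 had 139, 107 and 597 UMIs in Schwann cells of libraries 2 to 4, against 5, 2 and 3 UMIs in fibroblasts, and its log2 ratios were 5.20 (3.95 to 6.85), 7.59 (5.70 to 10.65) and 5.94 (4.39 to 8.22). In library 1 it was not measured, with 6 UMIs in 253 Schwann cells, against 1 UMI in 6400 fibroblasts. Without the Schwann cells that held a UMI of Tyrp1, a gene high in satellite glia, the Ephb1 value of library 2 was 4.56. In library 4 Ephb1 differed between myelinating and nonmyelinating Schwann cells, so its Schwann level there is an average over both. Epha5 was measured in library 4 alone, with 39.6 CPM in Schwann cells, against 1.28 CPM in fibroblasts, a log2 ratio of 4.95 (4.29 to 5.71). In cells thinned to 2000 UMIs, 6.87% of 5326 Schwann cells of library 4 had an Epha5 UMI, against 2.25% of 89 macrophages and 0 of 947 fibroblasts, which allows up to 0.317%. Before thinning the shares were 24.2%, 4.44% and 1.42%, at median depths of 7317, 14059.5 and 12880 UMIs.

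Epha3 ran the other way, with 2.55, 2.31, 1.63 and 3.56 CPM in Schwann cells, against 13.0, 37.9, 35.1 and 33.1 CPM in fibroblasts. On 2, 5, 3 and 162 Schwann UMIs its log2 ratios were -2.34 (-5.39 to -0.48), -4.04 (-5.69 to -2.77), -4.43 (-6.72 to -2.86) and -3.22 (-3.48 to -2.96). Ephb2 had 10.2, 0.923, 8.14 and 23.6 CPM in Schwann cells, against 22.5, 13.2, 21.2 and 59.3 CPM in fibroblasts. Its log2 ratios were -1.14, -3.84 (-6.94 to -1.89, on 2 Schwann UMIs), -1.38 and -1.33. Epha4 was lower in the 3 libraries where it was measured and Ephb4 in 3 of 4, Ephb4 with log2 ratios of -0.73, -1.9997, -1.79 and -1.91. Epha7 and Unc5c were lower in 2 libraries and Epha1 in library 4. Epha2 went the other way, at 12.8, 21.2 and 40.7 CPM in Schwann cells of libraries 1, 3 and 4, against 3.15, 11.3 and 17.6 CPM in fibroblasts, with log2 ratios of 2.02, 0.90 and 1.21. Unc5b had log2 ratios of 1.38, 1.29, -0.03 and 0.98, and Neo1 -1.44, -0.48, -1.66 and -0.80. Robo2 was within 2-fold in libraries 2 and 3 and lower in library 4 (-3.31), and Efnb3 likewise in library 3 (-0.10) and library 4 (-1.93). Ephb3 lay within 2-fold in all 4 libraries, from -0.24 to 0.17.

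Of 38 partner genes of these pathways, taken from lists of signalling partners and alternative ligands, 10 of 23, 7 of 23, 12 of 26 and 13 of 32 measured were higher in Schwann cells of libraries 1 to 4, beside 28.2%, 14.1%, 11.5% and 15.9% of all measured genes. Lower were 7, 8, 9 and 11 of them, beside 15.1%, 16.9%, 19.9% and 17.1%. Among Eph and ephrin partners 2 of 9, 1 of 10, 3 of 10 and 3 of 12 lay higher in Schwann cells, while 4, 5, 5 and 5 lay lower. Among Slit and Robo partners 5 of 7, 4 of 7, 6 of 8 and 4 of 8 lay higher, while 1, 2, 1 and 2 lay lower. A gene measured in several libraries is counted in each, and the difference between the lists was not tested. Adam10, a protease that sheds ephrins, was higher in every library (log2 1.88 to 3.04), as was Dag1, the dystroglycan that binds Slits (2.35 to 2.68). Of the Eph and ephrin list, Grb10 was lower in every library (-4.94 to -2.47), and Ngef and Vav3 were at least 2-fold lower in each. Mcam, a cell adhesion molecule reported as a netrin receptor, was higher (2.24 to 6.13), and Rgma, a neogenin ligand, lower (-4.13 to -2.60, the first on 1 Schwann UMI in library 1). Sdc2, a heparan sulphate proteoglycan, was lower in every library (-4.91 to -2.14). Of the calls above, the call for Ephb2 in library 1 was lost (-0.34) when cells were thinned to 2000 UMIs, and those for Ephb2 (-0.68) and Neo1 (-0.50) in library 3 with it. The lower call of Slit2 in library 3 was lost under a stricter gate (-0.82), and the higher call of Unc5b in library 1 with scaling by the median ratio of all genes (0.95). With equal weight per cell the bound for Ntn1 in library 1 (-0.98), Ephb2 in libraries 1 and 3 and Efna4 in library 4 (-0.93) came inside 2-fold.

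Myelinating cells were compared with nonmyelinating cells, which may be mature or immature, inside the Schwann class of libraries 2 to 4. Ephb1 separated them in opposite directions: it was lower in myelinating cells of library 2 and higher in those of libraries 3 and 4. Ephb6 was higher in myelinating cells of library 2 and under 2-fold higher in library 4, while Epha5 was lower in myelinating cells of library 4. Of 26 combinations over 20 genes, 6 were higher, 10 lower and 10 within 2-fold. Higher were 2 of 4, 1 of 2 and 3 of 20 genes in libraries 2 to 4, beside 6.69%, 9.63% and 5.37% of all measured genes. Lower were 2 of 4, 0 of 2 and 8 of 20, beside 17.1%, 10.4% and 15.7%.

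Ephb1 had 12.4, 80.7 and 64.1 CPM in myelinating cells of libraries 2 to 4 (8, 73 and 337 UMIs), against 92.1, 3.37 and 2.53 CPM in nonmyelinating cells (112, 1 and 69 UMIs). The log2 ratios were -2.90 (interval -4.14 to -1.87) in library 2, 4.58 (2.06 to 9.90) in library 3 on 1 nonmyelinating UMI, and 4.66 (4.29 to 5.06) in library 4. Thinned to 2000 UMIs, 10.9% of 512 myelinating cells of library 4 had an Ephb1 UMI, against 0.435% of 3218 nonmyelinating cells and 0 of 89 macrophages, which allows up to 3.37%. Before thinning the shares were 37.8%, 1.70% and 1.11%, at median depths of 9763.5, 7069 and 14059.5 UMIs. In library 2 the nonmyelinating cells also carried RNA of Tyrp1, a gene that stood at 2347 CPM in satellite glia of that library. Tyrp1 was at 17.0 CPM in myelinating cells of library 2, against 944 CPM in nonmyelinating cells, whereas in libraries 3 and 4 the nonmyelinating cells had 3.37 and 1.68 CPM. Without the cells that held a Tyrp1 UMI, the 153 nonmyelinating cells left in library 2 had 70.1 CPM of Ephb1 (40 UMIs). Leaving out cells by 1 gene need not remove every cell with satellite glia RNA. The 5 satellite glia markers summed to 193 CPM in myelinating cells of library 2, against 422 CPM in nonmyelinating cells, with Fabp7 at 0 in both by the gate. The part of satellite glia RNA in the difference between libraries was not tested.

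Ephb6 had 71.2 CPM in myelinating cells of library 2 and 16.5 CPM in those of library 4, against 11.5 and 8.53 CPM in nonmyelinating cells, with log2 ratios of 2.63 (1.74 to 3.61) and 0.96 (0.58 to 1.32). Slit2 had 32 UMIs in myelinating cells of library 2, against 1 UMI in nonmyelinating cells, a log2 ratio of 5.91 (3.33 to 11.26), and 0.84 in library 4. In library 3 it had 11 UMIs in myelinating cells, against 0, and was not measured. Epha5 had 11.6 CPM in myelinating cells of library 4, against 46.6 CPM in nonmyelinating cells, a log2 ratio of -2.01 (-2.40 to -1.63). Other genes lower in myelinating cells of library 4 were Efna1 (-1.37), Epha4 (-1.23), Ephb2 (-1.64), Ephb4 (-1.21), Slit3 (-1.20), Unc5b (-1.34) and Robo2, which had 1 UMI in myelinating cells, against 61 (-3.55, -8.88 to -1.02). Efnb3 (1.67) and Epha3 (1.68) were higher there, at 12.0 and 8.94 CPM in myelinating cells, against 3.77 and 2.78 CPM in nonmyelinating cells. Efnb1 was lower in library 2 (-2.26) and within 2-fold in libraries 3 and 4. Among the partner genes 1 of 17, 1 of 13 and 1 of 27 were higher in libraries 2 to 4 and 7, 4 and 10 lower, read against the shares of all genes above, and Mcam (-2.52 to -1.26) and Flrt3, a ligand of Unc5 receptors (-1.63 to -1.41), were lower in all 3 libraries. With a mitochondrial limit of 10% the values of Epha4 (-0.52), Slit3 (-0.86) and Unc5b (-0.81) in library 4 came inside 2-fold, as did that of Ephb4 (-0.40) in thinned cells.

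**Figure D3:**
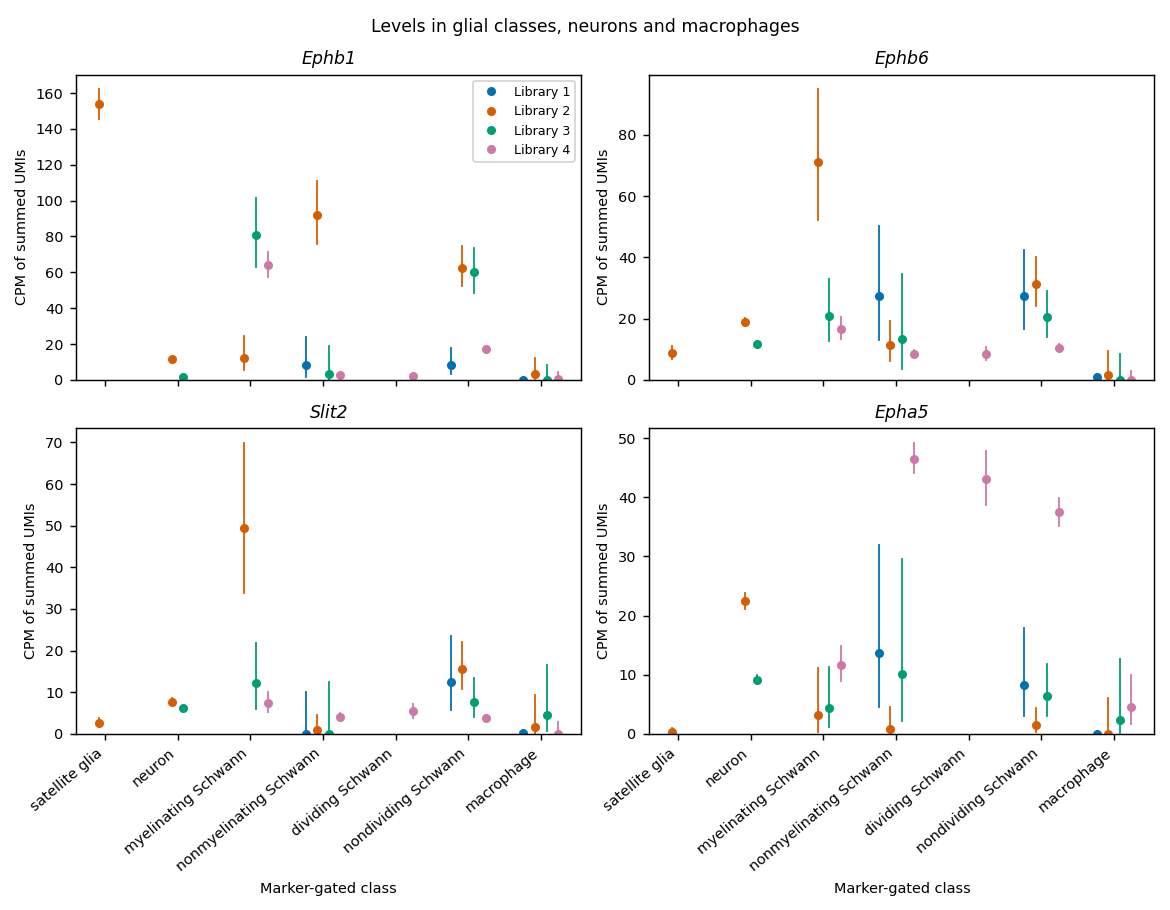
CPM of Ephb1, Ephb6, Slit2 and Epha5 (panels) in glial classes, neurons and macrophages, with 1 point per library and exact 95% Poisson intervals. Ephb1 is highest in satellite glia of library 2 and differs between myelinating and nonmyelinating cells in opposite directions in library 2 and in libraries 3 and 4; Epha5 is highest in nonmyelinating cells of library 4.

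Satellite glia, which wrap the cell bodies of sensory neurons, were compared with Schwann cells in library 2. Ephb1 was higher in satellite glia, and Ephb6, Slit2 and Robo2 were lower. Of 11 genes measured, 1 was higher and 3 lower, beside 5.37% and 8.83% of all measured genes. Ephb1 had 154 CPM in satellite glia (1346 UMIs), against 64.1 CPM in Schwann cells (139 UMIs), a log2 ratio of 1.26 (interval 1.01 to 1.52). Thinned to 2000 UMIs, 25.6% of 673 satellite glia held an Ephb1 UMI (22.3% to 29.0%), against 10.2% of 451 Schwann cells and 0.714% of 140 macrophages. Before thinning the shares were 70.9%, 16.5% and 1.20%, at median depths of 10436.5, 3366 and 3056 UMIs. The Schwann side held 596 CPM of Tyrp1, and without its Tyrp1 cells the 392 left had 41.2 CPM of Ephb1 (58 UMIs).

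Ephb6 had 8.80 CPM in satellite glia, against 29.98 CPM in Schwann cells (log2 -1.77, -2.26 to -1.27). Slit2 had 2.51 CPM in satellite glia, against 15.2 CPM in Schwann cells (-2.60, -3.45 to -1.78). Of the Schwann UMIs, 46 of 65 for Ephb6 and 32 of 33 for Slit2 lay in the 168 myelinating cells. Nonmyelinating cells had 0.822 CPM of Slit2 on 1 UMI, not above satellite glia. A contrast of satellite glia with nonmyelinating cells alone was not run. Robo2 had 3.31 CPM in satellite glia, against 9.23 CPM in Schwann cells (-1.48). Both lay below the 11.6 CPM of macrophages (7 UMIs, interval 4.68 to 24.0), and the part of stray RNA in these values was not tested. The remaining 7, Efna1, Efnb1, Epha2, Ephb3, Ephb4, Neo1 and Unc5b, lay between -0.48 and 0.55. Of 21 partner genes 4 were higher and 3 lower, beside the 5.37% and 8.83% of all genes: Nell2, a Robo ligand, was higher (3.41), as was Rgma (2.31), and the proteoglycan Gpc1 was lower (-2.95).

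Dividing Schwann cells, with at least 3 of 5 division markers, were compared with Schwann cells showing none in library 4 (681 and 3581 cells). Of 21 genes measured, 0 were higher and 1 lower, beside 5.38% and 3.85% of all measured genes. That gene was Ephb1, with 2.32 CPM in dividing cells (19 UMIs), against 17.0 CPM in nondividing cells (465 UMIs), a log2 ratio of -2.87 (-3.62 to -2.21). The share of myelinating cells moved with it: 4 of the 681 dividing cells (0.587%) passed the myelinating gate, against 430 of the 3581 nondividing cells (12.0%), and Ephb1 was 64.1 CPM in myelinating cells of that library. Among cells of the nonmyelinating gate, a comparison added after seeing the data, Ephb1 had 1.07 CPM in 537 dividing cells (7 UMIs), against 3.08 CPM in 1994 nondividing cells (45 UMIs), a log2 ratio of -1.52 (-2.92 to -0.36). The other 20 lay between -0.62 (Efnb3) and 0.69 (Slit3), with Epha5 at 0.20 and Ephb6 at -0.32. Most of the partner genes stayed within 2-fold too, with 1 of 27 higher (Rgma, 1.47) and 1 lower (its relative Rgmb, -1.50).

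Neurons were compared with Schwann cells in libraries 2 and 3. Robo2, Slit1, Efna1 and Efnb2 were higher in neurons in both libraries, and Ephb1, Epha2, Ephb3, Ephb4 and Slit3 were lower in both. Of 33 combinations over 18 genes, 10 were higher, 12 lower and 11 within 2-fold. Higher were 5 of 15 genes in library 2 and 5 of 18 in library 3, beside 28.1% and 24.7% of all measured genes. Lower were 6 of 15 and 6 of 18, beside 23.4% and 26.3%. The shares of higher genes were thus close to those of all genes.

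Robo2 had 183 and 80.1 CPM in neurons of libraries 2 and 3, against 9.23 and 5.97 CPM in Schwann cells, with log2 ratios of 4.31 (interval 3.69 to 5.03) and 3.74 (2.90 to 4.75). Macrophages, a class not known for Robo2, had 11.6 and 13.7 CPM on 7 and 6 UMIs, and the Schwann values were no higher. The part of stray RNA in the Schwann values was not tested. Thinned to 2000 UMIs, 29.2% of 914 neurons of library 2 and 13.6% of 1860 neurons of library 3 held a Robo2 UMI, against 2.14% of 140 and 3.66% of 82 macrophages. Thinning left out 3631 and 1268 shallower neurons, and before it the neuron shares were 23.0% and 50.4%, against 4.19% and 5.15% of macrophages. The median depths were 1128 and 9990.5 UMIs in neurons, against 3056 and 3714 UMIs in macrophages. In neurons of at least 5000 UMIs (702 and 1695 cells) Robo2 was at 193 and 80.1 CPM, and in those below (3843 and 1433 cells) at 96.1 and 77.1 CPM.

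Slit1 had 26.3 and 12.4 CPM in neurons, against 3.69 and 1.09 CPM in Schwann cells (8 and 2 UMIs), with log2 ratios of 2.83 (1.85 to 4.05) and 3.51 (1.65 to 6.56). Macrophages had 1.66 and 11.4 CPM of Slit1 on 1 and 5 UMIs. Efna1 had 31.6 and 30.9 CPM in neurons, against 14.3 and 5.97 CPM in Schwann cells (1.15 and 2.37). Efnb2 had 6.68 and 12.7 CPM in neurons, against 0.461 and 5.43 CPM in Schwann cells (1 and 10 UMIs), with log2 ratios of 3.86 (1.37 to 9.17) and 1.23 (0.34 to 2.29). Macrophages had 3.33 and 4.57 CPM of Efnb2 on 2 UMIs each. Epha5 separated the classes in library 2, with 22.4 CPM in neurons, against 1.38 CPM in Schwann cells on 3 UMIs (4.02, 2.47 to 6.30), but not by 2-fold in library 3, with 9.15 CPM in neurons, against 6.51 CPM in Schwann cells (0.49). Epha4 was higher in neurons of library 3 (2.58, 0.72 to 5.63, on 2 Schwann UMIs).

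**Figure D4:**
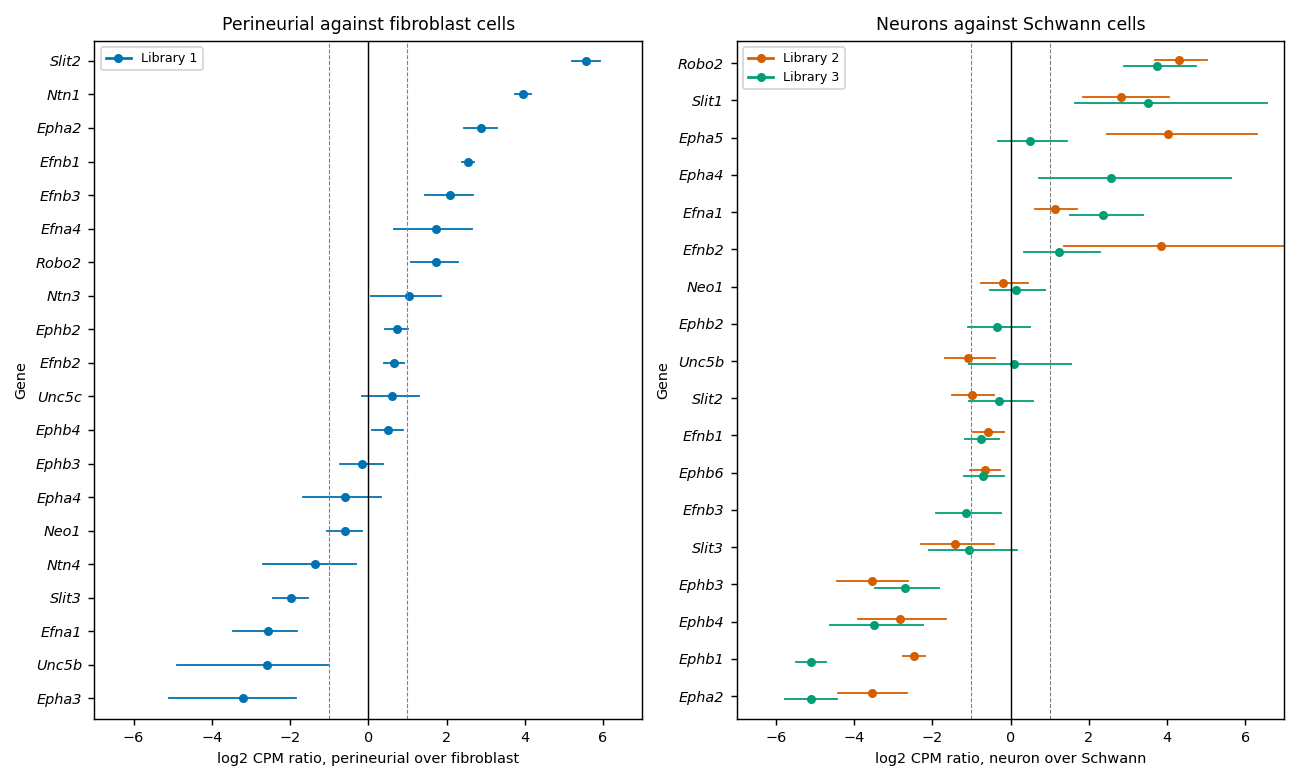
Log2 ratio of CPM for perineurial cells over fibroblasts in library 1 and for neurons over Schwann cells in libraries 2 and 3, with 95% counting intervals; dashed lines mark 2-fold. Slit2 and Ntn1 lie farthest right in perineurial cells and Robo2 in neurons, while Epha2, Ephb1, Ephb3 and Ephb4 lie left of the line in neurons of both libraries.

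Ephb1 had 11.6 and 1.70 CPM in neurons, against 64.1 and 58.1 CPM in Schwann cells, with log2 ratios of -2.47 and -5.10. Epha2 had 0.710 and 0.619 CPM in neurons, against 8.30 and 21.2 CPM in Schwann cells (-3.55 and -5.10). Ephb3 (-3.55 and -2.70), Ephb4 (-2.83 and -3.50) and Slit3 (-1.42 and -1.07) were also lower in neurons. The EphB receptors other than Ephb2 and Ephb6 were thus on the Schwann side: Ephb2 had -0.35 in library 3, and Ephb6 had -0.66 and -0.70, all within 2-fold. The Slit3 call was lost in library 3 when each cell had equal weight (-0.01) and in library 2 under a stricter gate (-0.94). The higher call of Efna1 in library 2 was lost with a mitochondrial limit of 10% (0.97), and that of Efnb2 in library 3 without the cells of most UMIs (0.92). Of the partner genes 9 of 27 and 9 of 29 were higher in neurons of libraries 2 and 3, beside 28.1% and 24.7% of all measured genes, and 8 and 10 lower, beside 23.4% and 26.3%. Nell2 (3.24 to 4.64) and Vav2 (1.92 to 2.94) were higher, as was the ephexin Ngef, with a log2 ratio of 3.02 in library 2 and at least 3.90-fold in library 3, where Schwann cells had 0 UMIs. Srgap2, a partner of Robo receptors (-4.73 to -4.33), Dock1 (-5.14 to -4.06) and Adam10 (-3.04 to -2.07) were lower.

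Endothelial cells were compared with mural cells in libraries 2 to 4. The ephrins Efna1 and Efnb2 and the receptors Ephb4 and Unc5b were at least 2-fold higher in endothelial cells in all 3 libraries, and Neo1 was lower in all 3. Of 24 combinations over 10 genes, 13 were higher, 4 lower and 7 within 2-fold. Higher were 4 of 10, 4 of 7 and 5 of 7 genes in libraries 2 to 4, beside 22.4%, 14.6% and 14.2% of all measured genes. Lower were 2 of 10, 1 of 7 and 1 of 7, beside 11.6%, 17.1% and 11.0%. The median log2 ratio of the family members was 0.13, 1.08 and 1.85, beside 0.14, -0.10 and -0.03 for all measured genes.

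Efna1 had 138, 243 and 185 CPM in endothelial cells of libraries 2 to 4, against 25.2, 10.4 and 15.4 CPM in mural cells, with log2 ratios of 2.45 (1.76 to 3.24), 4.54 (3.74 to 5.46) and 3.59 (2.82 to 4.47). Efnb2 had 100, 206 and 213 CPM in endothelial cells, against 48.9, 12.1 and 10.998 CPM in mural cells, with log2 ratios of 1.04 (0.52 to 1.60), 4.10 (3.35 to 4.95) and 4.28 (3.38 to 5.35). The mural level of Efnb2 was thus highest in library 2, and the call there was lost under several other settings, down to 0.44 in thinned cells. Ephb4 had 50.1, 56.0 and 51.5 CPM in endothelial cells, against 1.48, 8.04 and 14.3 CPM in mural cells, with log2 ratios of 5.08 (2.58 to 10.39, on 1 mural UMI), 2.80 (1.84 to 3.92) and 1.85 (1.01 to 2.80). Unc5b had 58.4, 28.8 and 54.4 CPM in endothelial cells, against 1.48, 13.7 and 9.90 CPM in mural cells, with log2 ratios of 5.30 (2.81 to 10.61, on 1 mural UMI), 1.08 (0.21 to 1.996) and 2.46 (1.48 to 3.62). Its call in library 3 was lost under a stricter gate (0.84).

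**Figure D5:**
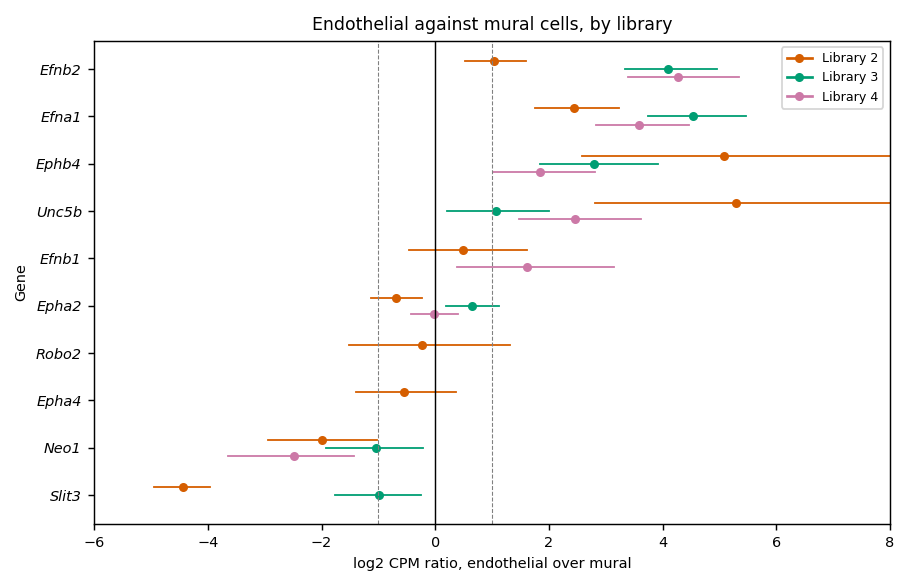
Log2 ratio of CPM, endothelial over mural cells, for the measured genes (rows) with 1 point per library and its 95% counting interval; dashed lines mark 2-fold. Efna1, Efnb2, Ephb4 and Unc5b lie right of the line in libraries 2, 3 and 4, Epha2 lies between the lines and Neo1 lies left of them.

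Neo1 ran the other way, with 6.29, 14.8 and 5.29 CPM in endothelial cells, against 25.2, 30.5 and 29.7 CPM in mural cells (-2.002, -1.05 and -2.49), the call of library 3 being lost with scaling by the median ratio of all genes (-0.94). Slit3 had 11.6 CPM in endothelial cells of library 2, against 252 CPM in mural cells (-4.44), but 18.7 CPM in endothelial cells of library 3, against 37.0 CPM in mural cells (-0.99). The mural class holds smooth muscle cells and pericytes. Mural cells with a UMI of Myh11, a smooth muscle myosin, had 271 and 80.9 CPM of Slit3 in libraries 2 and 3 (158 and 83 cells). Those with Rgs5 or Kcnj8, markers of pericytes, and no Myh11 had 5.95 and 2.79 CPM in libraries 3 and 4 (232 and 94 cells, 4 and 2 UMIs). Neo1 in library 3 was at 62.2 CPM in the Myh11 cells and at 11.9 CPM in the others. Epha2 did not divide the vessel wall, with log2 ratios of -0.69, 0.65 and -0.02, and Efnb1 was higher in endothelial cells of library 4 (1.61). Of the partner genes 11 of 16, 8 of 19 and 5 of 19 were higher in endothelial cells of libraries 2 to 4, beside 22.4%, 14.6% and 14.2% of all measured genes, and 2, 5 and 2 lower, beside 11.6%, 17.1% and 11.0%. From the Eph and ephrin list alone 8 of 9, 6 of 9 and 4 of 9 lay higher in endothelial cells, while 0, 1 and 0 lay lower; a gene measured in several libraries is counted in each. Arhgef15, an endothelial exchange factor of Eph signalling, had 0 UMIs in mural cells of all 3 libraries and was at least 22.1-fold, 15.5-fold and 10.4-fold higher in endothelial cells against a floor of 3 UMIs per library. The adaptor Nck1 (2.21 to 3.22) was higher in all 3 libraries, and Sdc2 was lower (-4.11 to -2.86).

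Perineurial cells, which form the sheath around nerve fascicles, were compared with fibroblasts in library 1. The secreted ligands Slit2 and Ntn1 were far higher in perineurial cells, with Epha2, Efnb1, Efnb3, Efna4, Robo2 and Ntn3 also at least 2-fold higher. Epha3, Unc5b, Efna1, Slit3 and Ntn4 were lower. Of 20 genes measured 8 were higher and 5 lower, beside 24.2% and 11.6% of all measured genes, and the median log2 ratio was 0.63, beside 0.42 for all measured genes.

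Slit2 had 76.0 CPM in perineurial cells (217 UMIs), against 1.61 CPM in fibroblasts (91 UMIs), a log2 ratio of 5.56 (interval 5.20 to 5.93). Ntn1 had 134 CPM in perineurial cells (383 UMIs), against 8.67 CPM in fibroblasts (490 UMIs), a log2 ratio of 3.95 (3.75 to 4.15). Thinned to 2000 UMIs, 24.0% of 333 perineurial cells held an Ntn1 UMI and 14.1% a Slit2 UMI, against 1.67% and 0.289% of 6232 fibroblasts and 0 of 1786 macrophages, which allows up to 0.168%. Before thinning the Ntn1 shares were 56.6%, 6.84% and 0.0517%, and the Slit2 shares 30.7%, 1.22% and 0.103%, at median depths of 7410, 7841.5 and 3838 UMIs.

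Epha2 had 23.1 CPM in perineurial cells, against 3.15 CPM in fibroblasts (log2 2.87), and macrophages of that library had 28.5 CPM. Efnb1 had 185 CPM in perineurial cells (527 UMIs), against 31.5 CPM in fibroblasts (2.55, 2.41 to 2.69). Efnb3 (2.09), Efna4 (1.72), Robo2 (1.72) and Ntn3 (1.03) followed, the last with an interval from 0.08 to 1.86 and a call that was lost under 4 of the other settings, down to 0.51. Epha3 had 1.40 CPM in perineurial cells (4 UMIs), against 13.0 CPM in fibroblasts (-3.21, -5.09 to -1.85), and Slit3 15.1 CPM in perineurial cells, against 58.9 CPM in fibroblasts (-1.97). Unc5b (-2.60, -4.89 to -1.04, on 3 perineurial UMIs), Efna1 (-2.58) and Ntn4 (-1.37) were also lower. Efnb2, Epha4, Ephb2, Ephb3, Ephb4, Neo1 and Unc5c lay between -0.59 and 0.72. Of 24 partner genes 8 were higher and 5 lower, beside the 24.2% and 11.6% of all genes, with Mcam (4.25) and the adaptor Nck2 (2.52) higher and the kinase Fyn (-4.69) lower.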

How the data were processed

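The authors deposited UMI counts as 1 matrix of 25399 genes and 41444 barcodes with 336170988 UMIs. Cell Ranger 3.1.0 wrote the matrix, per the file headers. The build Rnor_6.0, Seurat and CASAVA 1.8 are named in the submitters' processing notes. Libraries were made with a droplet kit that tags 3′ ends, per the labels' protocols. The family members, the marker lists and the pathway lists were chosen with earlier results of these data known, and the gate was set after its markers had been seen in the data.

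A barcode was kept if it had 500 or more genes with a UMI and no more than 20% of UMIs from mitochondrial genes. Each cell was scored, for each class, by the mean of its markers relative to the 100 cells of at least 1000 UMIs highest for each marker, and 117 of 130 listed markers were used. A class was given to a cell with a score of at least 0.05, at least 2 times the next, and at least 3 markers detected. Of the gated cells 1271 lay near that margin. No doublet caller was run: the margin leaves out cells with markers of several classes, and leaving out the 5% of each class's cells with most UMIs was an alternative. Between libraries 191 barcode sequences were shared (383 barcodes, 0.924%).

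Counts were summed per class and library and scaled to CPM, with a floor of 3 UMIs. Each value is a description of 1 library; the planned contrasts carry no test. All members with at least 20 UMIs in a class were eligible to be named. In each contrast, those at least 2-fold apart in the same direction in every library measured were eligible. Of each partner list at most 4 examples were eligible, those with the largest ratio of 1 direction, and not all of them are named. Alternatives were other limits on detected genes (200 and 1000), mitochondrial UMIs (10%), a stricter gate, minimums of 5 and 100 UMIs, cells thinned to 2000 UMIs, equal weight per cell and scaling by the median ratio of all genes. Another 5, on deep neurons, myelinating cells, Tyrp1 and the nonmyelinating gate in dividing cells, were added after seeing the data. The calculations were tested on simulated counts, with changes larger than 2-fold in genes of at least 20 expected UMIs in the smaller class. Calls near 2-fold or on fewer UMIs were not covered. Software was Python 3.11.15 with numpy 2.4.6, scipy 1.17.1, pandas 2.3.3 and matplotlib 3.10.9.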

Additional observations from a re-analysis of the deposited data

Results flagged for a closer look

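The Slit2 ratio of Schwann cells over fibroblasts did not keep 1 direction across libraries: its log2 values in libraries 1 to 4 were 2.84, 2.28, -1.21 and -0.26. The Schwann counts behind them were 9, 33, 14 and 189 UMIs, against 91, 9, 116 and 70 UMIs in fibroblasts. The difference between libraries was not tested.

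Ephb1 in myelinating over nonmyelinating Schwann cells also changed direction, with log2 values of -2.90, 2.996 and 4.66 in libraries 2 to 4. The value of library 3 takes the nonmyelinating side, with 1 UMI, at the floor of 3 UMIs, and is 4.58 from the counts as they are. In library 2 the nonmyelinating side held 944 CPM of Tyrp1, against 3.37 and 1.68 CPM in libraries 3 and 4. Without the cells holding a Tyrp1 UMI the value of library 2 was -2.50. The difference between libraries was not tested.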

How the results depend on the processing

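No paired analysis was possible because each labelled group had 1 library and no source used here ties a library to a group. Of the log2 ratios called 2-fold, 2 of 135 left the call with at least 200 detected genes, 4 of 133 with at least 1000, 8 of 105 with a mitochondrial limit of 10%, 4 of 120 under a stricter gate, 4 of 129 without the cells of most UMIs, 6 of 86 in thinned cells, 8 of 135 with equal weight per cell and 5 of 135 with scaling by the median ratio. Of the alternatives added later, deep neurons (22 calls), myelinating cells as the Schwann side (4), leaving out Tyrp1 cells (15 and 60) and dividing against nondividing cells within the nonmyelinating gate (1) lost 0. None changed sign under any setting run. With cells thinned to 2000 UMIs, Schwann cells against fibroblasts gave 9 higher and 29 lower in place of 14 and 48, myelinating against nonmyelinating cells 5 lower in place of 10, satellite glia against Schwann cells 1 lower in place of 3, neurons against Schwann cells 2 lower in place of 12, and endothelial against mural cells 8 higher and 1 lower in place of 13 and 4; fewer UMIs left fewer genes measured. With a minimum of 100 UMIs Schwann cells against fibroblasts gave 8 higher, myelinating cells 2 higher in place of 6, satellite glia 0 lower, neurons 5 lower and endothelial cells 1 lower. With a minimum of 5 UMIs satellite glia gave 7 lower and endothelial cells 10 lower. A mitochondrial limit of 10% gave 5 lower for myelinating cells and 1 higher for dividing cells in place of 0. The stricter gate gave 4 higher and 3 lower for perineurial cells, in place of 8 and 5. With myelinating cells as the Schwann side, an alternative chosen after seeing the data, satellite glia gave 3 higher in place of 1; the cause was not tested. Of the 88 highest classes, 78 to 88 kept their class over the settings that rebuild the levels.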
